A study of Mus musculus with 1 sample.

Results

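The genes described are 38 genes of the presynaptic terminal, which load, dock and release synaptic vesicles. They were taken by symbol from a list, and all 38 were found among the 51912 genes of the table. The list holds the synapsins Syn1, Syn2 and Syn3, the synaptophysin group Syp, Synpr, Syngr1 and Syngr3, the vesicle glycoproteins Sv2a, Sv2b and Sv2c, the SNARE genes Snap25, Stx1a, Vamp1 and Vamp2, and the endocytic adaptor Snap91. It further holds 6 synaptotagmins (Syt1, Syt2, Syt4, Syt5, Syt7 and Syt11), 3 complexins (Cplx1, Cplx2 and Cplx3), the GTPases Rab3a, Rab3b and Rab3c, and the active zone genes Bsn, Pclo, Rims1, Rims2, Unc13a and Unc13b. The transmitter genes are Slc17a6 and Slc17a7 for vesicular glutamate uptake, Gad1 and Gad2 for GABA synthesis, and Slc32a1 for vesicular GABA uptake.

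The study asked how human SERPINA3, expressed in mouse neural progenitors, changes the cortex. Sc-RNA Seq data of WT (wild-type) C57BL/6 cerebral cortex taken at P0, the day of birth, were used here, from mice with no transgene and no treatment named in the labels. The data were 1 WT library of 11062 cells. The design text also names triplicates and mice in which a floxed SERPINA3 knock-in was switched on by Nestin-Cre, which acts in neural progenitors and their progeny, and these were not analysed here. The sample title calls the tissue telencephalic while its other labels say cortex, and how many animals gave the cells is not given in the sources used here.

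Synaptic vesicles are filled with transmitter by a transporter, and the transporter and the enzymes behind it decide whether a terminal releases glutamate or GABA. A vesicle SNARE (Vamp2) zips together with 2 partners on the plasma membrane (Snap25 and Stx1a), complexins hold and support this complex, and calcium bound to a synaptotagmin starts fusion. Most steps are served by a small family of paralogues, and in rodent forebrain several of these pairs are known to shift in use as neurons mature.

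Cells were sorted into classes by UMIs (unique molecular identifiers, which count each captured transcript once) of marker genes that include none of the 38. Of the 8447 cells with at least 2000 non-mitochondrial UMIs, 4740 met exactly 1 class. These were 82 dividing cells, 202 radial glia or astrocyte-like cells, 155 oligodendrocyte precursor-like (OPC-like) cells, 248 Eomes-gated newborn neurons and 1784 Igfbpl1-gated young excitatory neurons. Newborn neurons were gated on Eomes, Neurog2 and Sstr2, and 71 of the 248 were at the gate minimum. Eomes encodes TBR2, which the paper stains for among progenitors of the expanded SVZ. This class may therefore also hold progenitors that are not yet neurons. Settled excitatory neurons, below called layer neurons, were 715 Cux-gated neurons without Igfbpl1, 442 layer IV-like (Rorb), 159 layer V-like, 592 layer VI-like and 47 layer VIb-like cells, 1955 in all. The layer V-like gate used Fezf2 and Bcl11b, the layer VI-like gate Tle4, Foxp2, Hs3st4 and Zfpm2, and the layer VIb-like gate, for cells at the base of the cortex that derive from the subplate, Ctgf, Nxph4, Moxd1 and Tmem163. The interneurons were 132 Lhx6 interneuron-like and 99 Adarb2 interneuron-like cells. A further 17 Cajal-Retzius-like, 15 striatal inhibitory-like and 51 non-neural cells (vessel, immune and fibroblast markers) completed the classes. Between 4 of 6 and 12 of 12 check markers were higher inside a class than outside it. The 4 of 6 were those of the layer IV-like class. There Inhba (ratio 6.14), Lmo3 (1.66), Kcnh5 (1.53) and Rspo1 (1.10, from 3 UMIs) were higher. Thsd7a was lower (0.562), and Tmem215 had 0 UMIs, so the name layer IV-like rests mainly on Rorb and Inhba. The Cux-gated neurons had none of their own markers among their 10 leading genes (0 of 10) and 1 of another class, Nr4a2, a check marker of the layer VIb-like class. Of their 7 check markers 5 were higher inside the class, and Pou3f2 (ratio 0.772) and Pou3f3 (0.868) were lower. They are therefore named by their gate only.

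Levels are CPM, the UMIs of a gene summed over a class, divided by all non-mitochondrial UMIs of that class and scaled to 1000000. Values in brackets are exact 95% intervals for counting error alone. With 1 library there is no replicate error, no test between classes and no p-value. UMIs come from 3′ ends and are not scaled to gene length, so levels are compared between classes and not between genes, and paralogue use is given as a share of the UMIs of a family. Median depth ran from 4326 UMIs a cell in the Adarb2 class to 20945 in the layer V-like class, and shares of cells with a UMI were therefore also computed after each cell had been thinned to 2000 UMIs.

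Start-site sequences are shown for 4 members whose use shifted between paralogues from class to class, the synapsins Syn1 and Syn2 and the glutamate transporters Slc17a6 and Slc17a7. They come from RefSeq on build GRCm38.p6, in which 30 of the 38 members had an entry, and run 5′ to 3′ on the strand of the gene. Syn1 lies at chrX:20921005-20921168 (minus strand), Syn2 at chr6:115134652-115134901 (plus), Slc17a6 at chr7:51621580-51621829 (plus) and Slc17a7 at chr7:45163671-45163920 (plus). Those of Syn2, Slc17a6 and Slc17a7 are the 250 bases before the start site. That of Syn1 is the 164 bases farthest upstream in such a window, because the rest is annotated as untranslated exon in another transcript. Part of the Syn2 window overlaps 1 annotated exon. Capitals mark matches to the motifs searched on both strands.
Syn1: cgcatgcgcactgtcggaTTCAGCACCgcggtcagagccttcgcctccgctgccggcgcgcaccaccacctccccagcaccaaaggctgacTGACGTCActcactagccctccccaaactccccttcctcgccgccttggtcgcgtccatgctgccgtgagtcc
Syn2: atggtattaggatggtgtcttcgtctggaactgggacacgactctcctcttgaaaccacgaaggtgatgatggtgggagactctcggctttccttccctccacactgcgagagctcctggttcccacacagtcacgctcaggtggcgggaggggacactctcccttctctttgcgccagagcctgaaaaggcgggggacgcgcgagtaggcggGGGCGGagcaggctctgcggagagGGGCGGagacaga
Slc17a6: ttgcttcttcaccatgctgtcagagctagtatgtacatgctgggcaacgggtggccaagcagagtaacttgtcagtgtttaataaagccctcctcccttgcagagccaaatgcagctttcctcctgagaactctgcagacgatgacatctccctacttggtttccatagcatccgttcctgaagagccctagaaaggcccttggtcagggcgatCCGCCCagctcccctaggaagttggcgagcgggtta
Slc17a7: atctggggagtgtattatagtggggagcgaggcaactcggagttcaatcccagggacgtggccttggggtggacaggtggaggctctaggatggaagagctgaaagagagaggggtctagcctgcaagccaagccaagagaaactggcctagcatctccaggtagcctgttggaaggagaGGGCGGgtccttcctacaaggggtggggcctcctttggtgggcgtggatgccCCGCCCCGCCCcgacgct
The Syn1 window held TTCAGCACC, the left part of the site of the neuronal gene repressor REST, 232 bases before the start, and the cAMP response element TGACGTCA 159 bases before it. In windows of 300 bases (250 before to 50 after the start), TTCAGCACC was found in 2 of the 30 members (Syn1 and Unc13a) and in 0.433% of 27025 genes, and TGACGTCA in 1 member and 2.03% of genes. The GC box GGGCGG, or CCGCCC on the other strand, stood 37 and 13 bases before the start of Syn2, 36 before that of Slc17a6, and 70, 18 and 13 before that of Slc17a7, where the 2 nearest matches share 1 base. It was found in 24 of 30 members and in 38.2% of all genes. CAGATG was found in 5 of 30 members and 19.2% of genes, and TATAAA in 3 of 30 and 15.7%. These matches describe letters in a window, not bound sites.

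The 38 genes together made up a larger part of the RNA in neurons than in progenitors or glia. Their summed level was 1581 CPM in dividing cells, 1677 CPM in radial glia or astrocyte-like cells and 1531 CPM in OPC-like cells. It was 2464 CPM (2392 to 2537) in Eomes-gated newborn neurons, 3079 CPM in Igfbpl1-gated young neurons and 4117 CPM (4092 to 4141) in layer neurons. Within layer neurons it ran from 3694 CPM in Cux-gated to 4847 CPM (4792 to 4902) in layer IV-like neurons. Among interneurons the Lhx6 class stood at 4973 CPM (4826 to 5123) and the Adarb2 class at 3578 CPM (3409 to 3752). Non-neural cells, which should lack most of these genes, were at 381 CPM (337 to 430). Single genes carried much of these sums, with Syt11 alone giving 1146 CPM in radial glia or astrocyte-like cells and Syt4 1466 CPM in layer IV-like neurons. The median level of a member was 10.5 CPM in radial glia or astrocyte-like, 17.9 CPM in dividing and 19.6 CPM in OPC-like cells. It was 33.9 CPM in newborn, 65.6 CPM in layer IV-like and 84.7 CPM in layer VIb-like neurons, so that by this measure the layer VIb-like class was the highest of the layers.

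Counts per cell at matched depth were also lowest outside neurons. Of 2000 UMIs a cell, the median number from the 38 genes was 2 in dividing cells, 3 in both glia-like classes, 4 in newborn neurons, 6 in young neurons and 7 to 10 in the classes of layer neurons. It was 9 in Lhx6, 6 in Adarb2 and 0 in non-neural cells. Among the 12 classes of over 45 cells other than the non-neural one, the median level of a member was highest in the layer VIb-like class, the smallest of the 12. It was lowest in radial glia or astrocyte-like cells. The map of member levels shows both classes as a bright and a dark column.

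**Figure D1:**
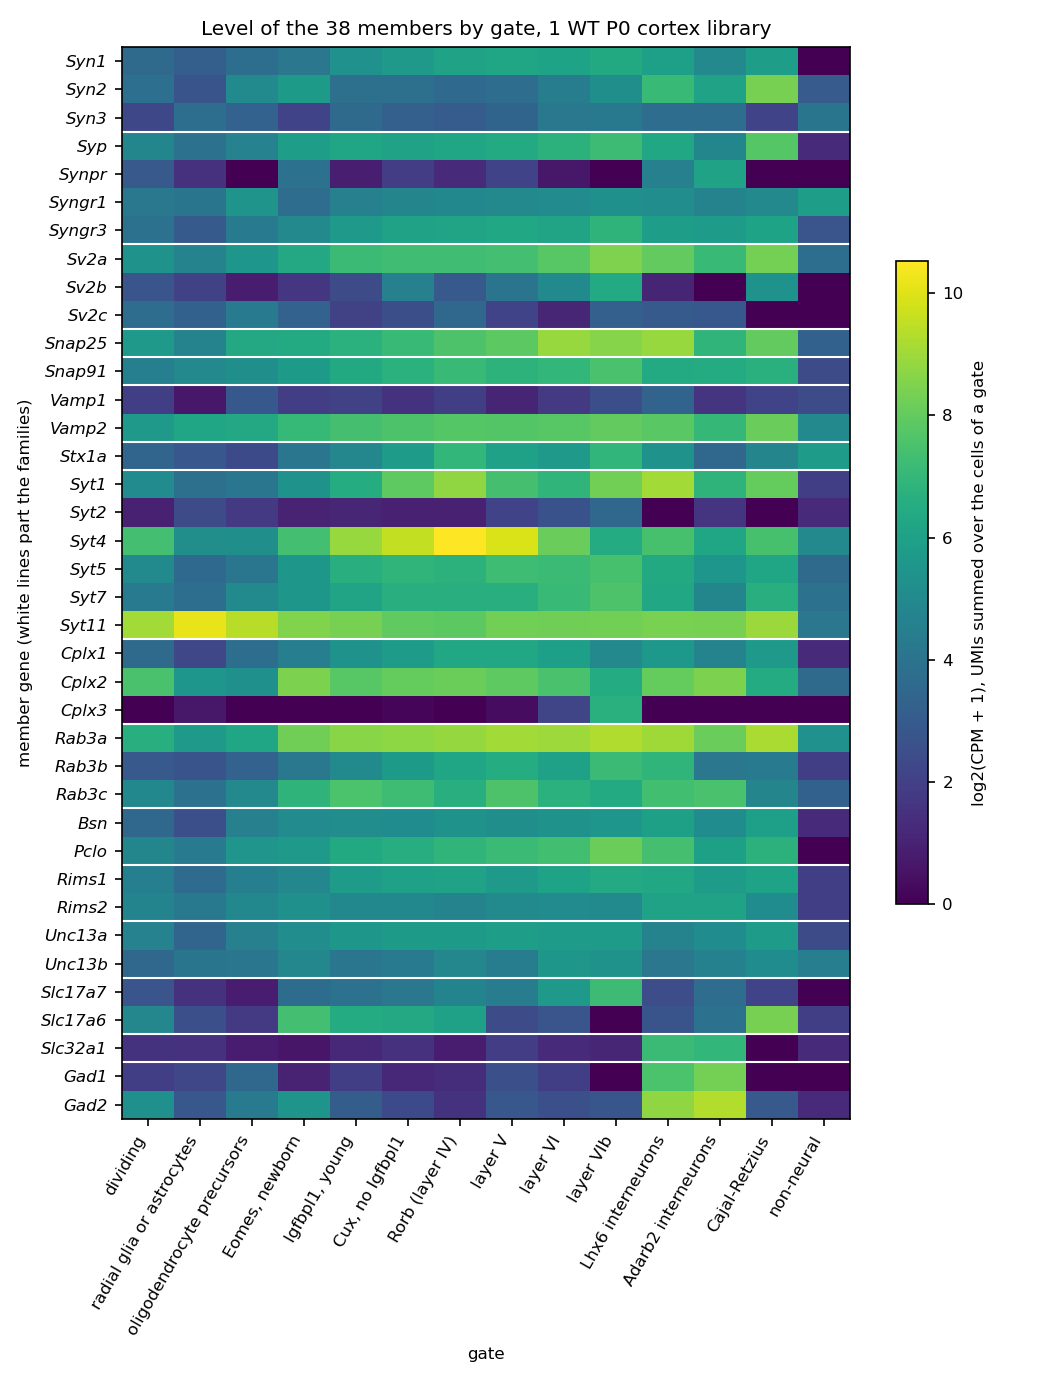
Level of each of the 38 genes (rows, ordered by role) in 14 classes of cells (columns), as log2(CPM + 1) from UMIs summed over the cells of a class in 1 WT library. Syt11 is the gene that stands out in glia-like cells (1146 CPM), and Gad1, Gad2 and Slc32a1 stand out in the inhibitory classes.

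The first comparison asked which genes differ between the Eomes-gated newborn class and settled excitatory neurons. A gene is counted as higher or lower when the 2 levels differ at least 2-fold. In layer neurons 22 of 38 genes were higher than in Eomes-gated neurons, where 13.8% of the 13425 genes with at least 100 UMIs were, and 4 were lower, against 12.8%. The intervals of 3 of the 22 (Slc32a1, Syt2 and Gad1) held a ratio of 1. Sv2b, Syt2 and Cplx3 reached 100 UMIs only through layer neurons, with 94, 34 and 1 UMIs in all other classes, and 19 higher genes remain without them. The median ratio was 2.28 over the 38 genes and 0.942 over all genes compared. The step from newborn to Igfbpl1-gated young neurons had 7 higher (7.31% of all genes), 2 of them with intervals that held 1, and 4 lower (9.21%), with a median ratio of 1.43. The step from young to layer neurons had 9 higher (7.88%), or 6 without these 3 genes, and 1 lower (3.67%), with a median of 1.29. These 3 comparisons share their groups in pairs and are not independent.

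The largest ratios came from genes of several roles. Sv2b, a vesicle glycoprotein, was 10.1-fold higher (3.91 to 37.1) in layer than in newborn neurons, from 4 UMIs in the latter. Syt1, the calcium sensor of fast release, was 5.89-fold higher (4.70 to 7.48), and Syt4, a synaptotagmin that is a poor calcium sensor, 4.86-fold (4.34 to 5.46). Stx1a followed at 4.46-fold (3.11 to 6.63), then Rab3b at 3.89-fold, Syn1 at 3.70-fold (2.60 to 5.47), Syn3 at 3.33-fold and Snap25 at 3.08-fold (2.63 to 3.64). The vesicle SNARE Vamp2 was 133 CPM in newborn and 207 CPM in layer neurons, short of 2-fold. Rab3a and Cplx2 likewise stayed within 2-fold, with Rab3a at 301 and 476 CPM and Cplx2 at 347 and 236 CPM. The 4 lower genes were Gad2 (ratio 0.0985), Synpr (0.13), Slc17a6 (0.262) and Syn2 (0.301). When classes were formed on cells thinned to 2000 UMIs, 15 of the 22 higher and 3 of the 4 lower genes kept a 2-fold difference. Of these, 14 and 2 had at least 100 UMIs there. Slc17a6 lost the 2-fold difference among the lower genes, and Sv2b, Syn3, Syngr1, Syt2, Cplx3, Slc32a1 and Gad1 among the higher ones.

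The glutamate transporters were used in opposite order from newborn to deep-layer neurons. Slc17a6 was 164 CPM (146 to 184) in Eomes-gated newborn neurons, 87.1 CPM (82.5 to 91.9) in young, 79.8 CPM (73.9 to 86.1) in Cux-gated and 63.9 CPM (57.7 to 70.5) in layer IV-like neurons. It was 4.39 CPM (2.51 to 7.13) in layer V-like and 5.81 CPM (4.15 to 7.91) in layer VI-like neurons, and had 0 UMIs in layer VIb-like neurons, where 3 UMIs would be 3.58 CPM. Both neighbouring pairs, young with Cux-gated and layer V-like with VI-like, had overlapping intervals, and the last 3 classes were close to the 2.88 CPM (0.348 to 10.4) of non-neural cells. Slc17a7 went the other way. It was 12.0 CPM (7.55 to 18.2) in newborn, 14.1 CPM (12.3 to 16.1) in young and 17.2 CPM (14.5 to 20.2) in Cux-gated neurons. Levels were 25.7 CPM (21.9 to 30.0) in layer IV-like, 20.9 CPM (16.4 to 26.1) in layer V-like, 49.8 CPM (44.7 to 55.3) in layer VI-like and 148 CPM (123 to 176) in layer VIb-like neurons, with 0 UMIs in non-neural cells. Ordered by level, neighbours overlapped from newborn through young, Cux-gated and layer V-like to layer IV-like neurons, and the layer VI-like and VIb-like classes stood clear of the other excitatory classes.

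Slc17a6 thus made up 93.2% (89.8 to 95.7) of the UMIs of the pair in newborn neurons, 82.3% (79.5 to 84.9) in Cux-gated and 71.3% (67.3 to 75) in layer IV-like neurons. It made up 17.4% (10.3 to 26.7) in layer V-like neurons, 10.4% (7.57 to 13.9) in layer VI-like neurons and 0 of 124 UMIs in layer VIb-like neurons, which allows up to 2.93%. Pooled over layer neurons the share was 56.9% (54.7 to 59.1). That pooled value follows the mix of classes, and was 39.2% without the Cux-gated neurons and 37.0% when the 5 classes counted equally. In thinned cells, 172 layer neurons held a UMI of Slc17a6 only, 127 of Slc17a7 only, 5 of both and 1651 of neither. Both were thus seen in 0.256% of cells, where independent detection would give 0.611%. The values were 0.140% against 0.565% in Cux-gated, 0.679% against 0.871% in layer IV-like and 0.169% against 0.0531% in layer VI-like neurons. With so few detections these counts do not show that a cell used only 1 transporter. Thinned to 2000 UMIs, 31.9% of newborn neurons and 0 of 51 non-neural cells held a Slc17a6 UMI, and unthinned 60.1% and 3.92% did, at median depths of 6683 and 7252 UMIs.

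**Figure D2:**
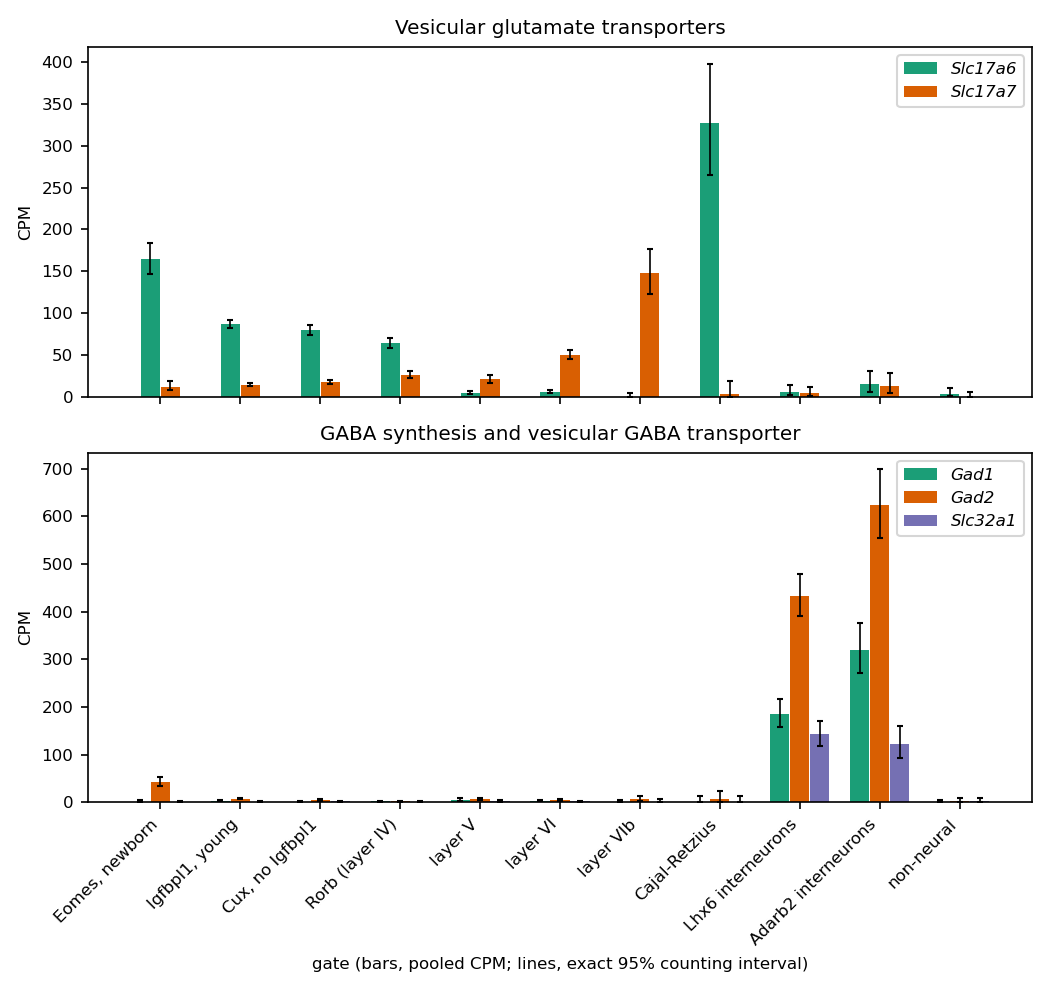
Levels in CPM of the glutamate transporter genes Slc17a6 and Slc17a7 (top) and of the GABA genes Gad1, Gad2 and Slc32a1 (bottom) by class, in 1 WT library; bars are pooled levels and lines exact 95% intervals for counting error. Slc17a6 declines from 164 CPM in newborn neurons as Slc17a7 climbs to 148 CPM in layer VIb-like neurons, and the GABA genes are high in the interneuron classes.

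The GABA genes were high in interneurons. Gad2 was also found at low level elsewhere, as was Gad1 in OPC-like cells. Gad2 was 432 CPM (390 to 478) in Lhx6 and 623 CPM (554 to 699) in Adarb2 interneuron-like cells, and Gad1 185 CPM (157 to 216) and 320 CPM (271 to 375). Slc32a1 was 143 CPM (119 to 170) and 123 CPM (93.3 to 159), with overlapping intervals. In layer neurons these 3 genes were at 4.21, 2.28 and 1.58 CPM, and in non-neural cells at 1.44, 0 and 1.44 CPM. Gad2 held 68.3% (65.2 to 71.2) of the Gad1 and Gad2 UMIs of interneurons, with 70.1% in Lhx6 and 66.1% in Adarb2 cells.

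Gad2 outside interneurons was seen in newborn neurons, dividing cells and OPC-like cells, the last at 19.6 CPM (12.6 to 29.2). OPC-like cells also held Gad1, with 13 UMIs beside 24 of Gad2. In thinned cells 5 of 155 OPC-like cells held a UMI of Gad1 only and 5 of Gad2 only. Eomes-gated newborn neurons had 42.7 CPM (33.8 to 53.3) of Gad2, from 78 UMIs in 44 of 248 cells, with at most 8 in 1 cell, and dividing cells had 37.7 CPM (26.8 to 51.5) from 39 UMIs in 21 of 82, with 46.2% of them in 5 cells. Gad1 had 2 UMIs and Slc32a1 1 UMI in the same newborn neurons, so that Gad2 made up 97.5% (91.3 to 99.7) of Gad1 and Gad2 UMIs. Of the 44 Gad2-positive newborn neurons, 3 held a UMI of the inhibitory lineage genes Dlx1, Dlx2, Dlx5, Dlx6 or Dlx6os1, although the gate itself left out cells with 3 or more of these per 10000 UMIs. Of the 21 Gad2-positive dividing cells, 5 held such a UMI. In thinned cells 8.47% of newborn neurons, 61.5% of interneurons and 0 of 51 non-neural cells held a Gad2 UMI, and unthinned 17.7%, 89.2% and 1.96% did, with interneurons at a median of 5036 UMIs.

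The SNARE genes differed in how evenly they were used. Snap25 was 84.9 CPM (72.0 to 99.3) in newborn neurons, 135 CPM in Cux-gated, 189 CPM in layer IV-like and 233 CPM in layer V-like neurons, and 479 CPM (463 to 496) in layer VI-like neurons. It was 471 CPM (427 to 519) in Lhx6 and 117 CPM (87.8 to 152) in Adarb2 cells. In thinned cells Snap25 was seen in 63.9% of layer VI-like neurons, 20.3% of Cux-gated neurons, 0.99% of radial glia or astrocyte-like cells and 1.96% of non-neural cells. Unthinned these shares were 96.1%, 65.2%, 15.3% and 9.80%. At matched depth the share of radial glia or astrocyte-like cells was not above that of non-neural cells, but few cells of either class held a UMI. Pooled levels were 25.3 CPM in radial glia or astrocyte-like and 8.63 CPM in non-neural cells. The shares of OPC-like cells, 13.5% thinned and 39.4% unthinned, were above those of non-neural cells.

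Vamp2, in contrast, stayed between 189 and 256 CPM in all layer neurons and held 98.9% (98.6 to 99.2) of their Vamp1 and Vamp2 UMIs. Radial glia or astrocyte-like cells also held Vamp2, at 71.6 CPM (59.2 to 85.9), above the 30.2 CPM (18.7 to 46.2) of non-neural cells. Vamp1, a vesicle SNARE used more in spinal cord and brainstem of the adult, had 141 UMIs over all classes and, among the 12 larger classes, at most 9.13 CPM, in Lhx6 cells. Stx1a, the syntaxin, was 122 CPM (114 to 131) in layer IV-like and 49.8 CPM (44.7 to 55.3) in layer VI-like neurons, an order opposite to that of Snap25. Non-neural cells held 53.2 CPM of Stx1a (37 UMIs in 17 of 51 cells), so its level there was as high as in layer VI-like neurons. Snap91, a clathrin adaptor that helps to retrieve vesicles, was 52.6 CPM in newborn and 104 to 181 CPM in layer neurons.

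Each synaptotagmin had its own order of classes. Syt4 was 166 CPM (148 to 186) in newborn, 482 CPM in young, 752 CPM in Cux-gated, 1466 CPM in layer IV-like and 970 CPM in layer V-like neurons. It was lower in deeper classes, at 279 CPM (266 to 291) in layer VI-like and 87.1 CPM (68.2 to 109) in layer VIb-like neurons. Syt4 held 62.7% (61.9 to 63.5) of synaptotagmin UMIs in layer IV-like and 8.02% (6.34 to 9.98) in layer VIb-like neurons.

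Syt1 was 41.6 CPM (32.8 to 52.1) in newborn, 90.8 CPM in young, 237 CPM in Cux-gated, 431 CPM (415 to 448) in layer IV-like, 170 CPM in layer V-like, 118 CPM in layer VI-like and 314 CPM in layer VIb-like neurons. The highest level was 526 CPM (479 to 576) in Lhx6 cells. Its share of synaptotagmin UMIs was 38.9% (36.2 to 41.6) in interneurons and 15.7% (15.3 to 16.0) in layer neurons. Within interneurons the share was 43.9% (40.9 to 47.0) in Lhx6 and 19.6% (15.1 to 24.7) in Adarb2 cells. The Adarb2 interval held the value of layer neurons, and layer VIb-like neurons were at 28.9% (26.0 to 32.0). At matched depth 55.0% of layer IV-like neurons and 0 of 51 non-neural cells held a Syt1 UMI, and unthinned 98.4% and 3.92% did.

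Syt11, another member without fast calcium sensing, was highest in glia-like and dividing cells. Its level was 1146 CPM in astrocyte-like or radial glia cells, 661 CPM (617 to 709) in OPC-like and 526 CPM (482 to 572) in dividing cells, and 364 CPM in newborn and 271 CPM in layer neurons. It held 93.7% (92.5 to 94.7) of synaptotagmin UMIs in radial glia or astrocyte-like cells and 9.96% (9.48 to 10.5) in layer IV-like neurons. Its share was also large in dividing cells (68.1%), newborn neurons (54.7%) and Adarb2 cells (55.4%). In thinned cells 86.6% of radial glia or astrocyte-like and 1.96% of non-neural cells held a Syt11 UMI, and unthinned 99.5% and 19.6% did. Syt7, the sensor of slow release, and Syt5 were highest in layer VIb-like neurons among the 12 larger classes, at 192 CPM (164 to 224) and 173 CPM (146 to 203). Syt2, the fast sensor of hindbrain and some inhibitory terminals, had 105 UMIs over all classes and reached 10.7 CPM (4.91 to 20.4) in layer VIb-like neurons.

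Among complexins, Cplx2 held most UMIs in every class but 1, and 86 of the 114 Cplx3 UMIs lay in layer VIb-like neurons. Cplx2 held 94.1% (92.0 to 95.7) of complexin UMIs in newborn, 77.7% (76.8 to 78.6) in layer and 40.0% (32.9 to 47.4) in layer VIb-like neurons. Cplx3 was 103 CPM (82.0 to 127) in layer VIb-like neurons, where it held 46.5% (39.1 to 54.0) of complexin UMIs, and 3.63 CPM (2.35 to 5.36) in layer VI-like neurons. It had 0 UMIs in newborn, young and layer IV-like neurons, both interneuron classes and non-neural cells. The 86 Cplx3 UMIs of layer VIb-like neurons came from 20 of 47 cells, and 5 cells held 48 of them. Cplx1 was 21.9 CPM (15.6 to 29.8) in newborn neurons and 54.8 to 76.1 CPM in the larger layer classes, but 29.8 CPM (19.3 to 44.0) in layer VIb-like neurons.

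The synapsins, which tie vesicles into the reserve pool, changed partner between newborn and young neurons. Syn2 was 52.0 CPM (42.1 to 63.6) in newborn, 13.5 CPM (11.8 to 15.5) in young and 15.7 CPM (14.2 to 17.3) in layer neurons. Syn1 was 17.0 CPM (11.5 to 24.1), 39.5 CPM (36.4 to 42.8) and 62.8 CPM (59.8 to 66.0) in the same 3 groups. Syn2 thus held 72.0% (63.5 to 79.4) of synapsin UMIs in newborn neurons and 20.9% (18.5 to 23.6) in young neurons, and Syn1 held 70.3% (68.4 to 72.1) in layer neurons. In interneurons Syn2 held 63.8% (57.2 to 70.0) of synapsin UMIs, at 133 CPM in Lhx6 and 65.7 CPM in Adarb2 cells. The share was 84.3% (76.4 to 90.5) in the 17 Cajal-Retzius-like cells, where 15 cells held a Syn2 UMI. Syn3 stayed between 3.29 and 17.9 CPM in all 12 larger classes and was 15.8 CPM (7.90 to 28.3) in non-neural cells.

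**Figure D3:**
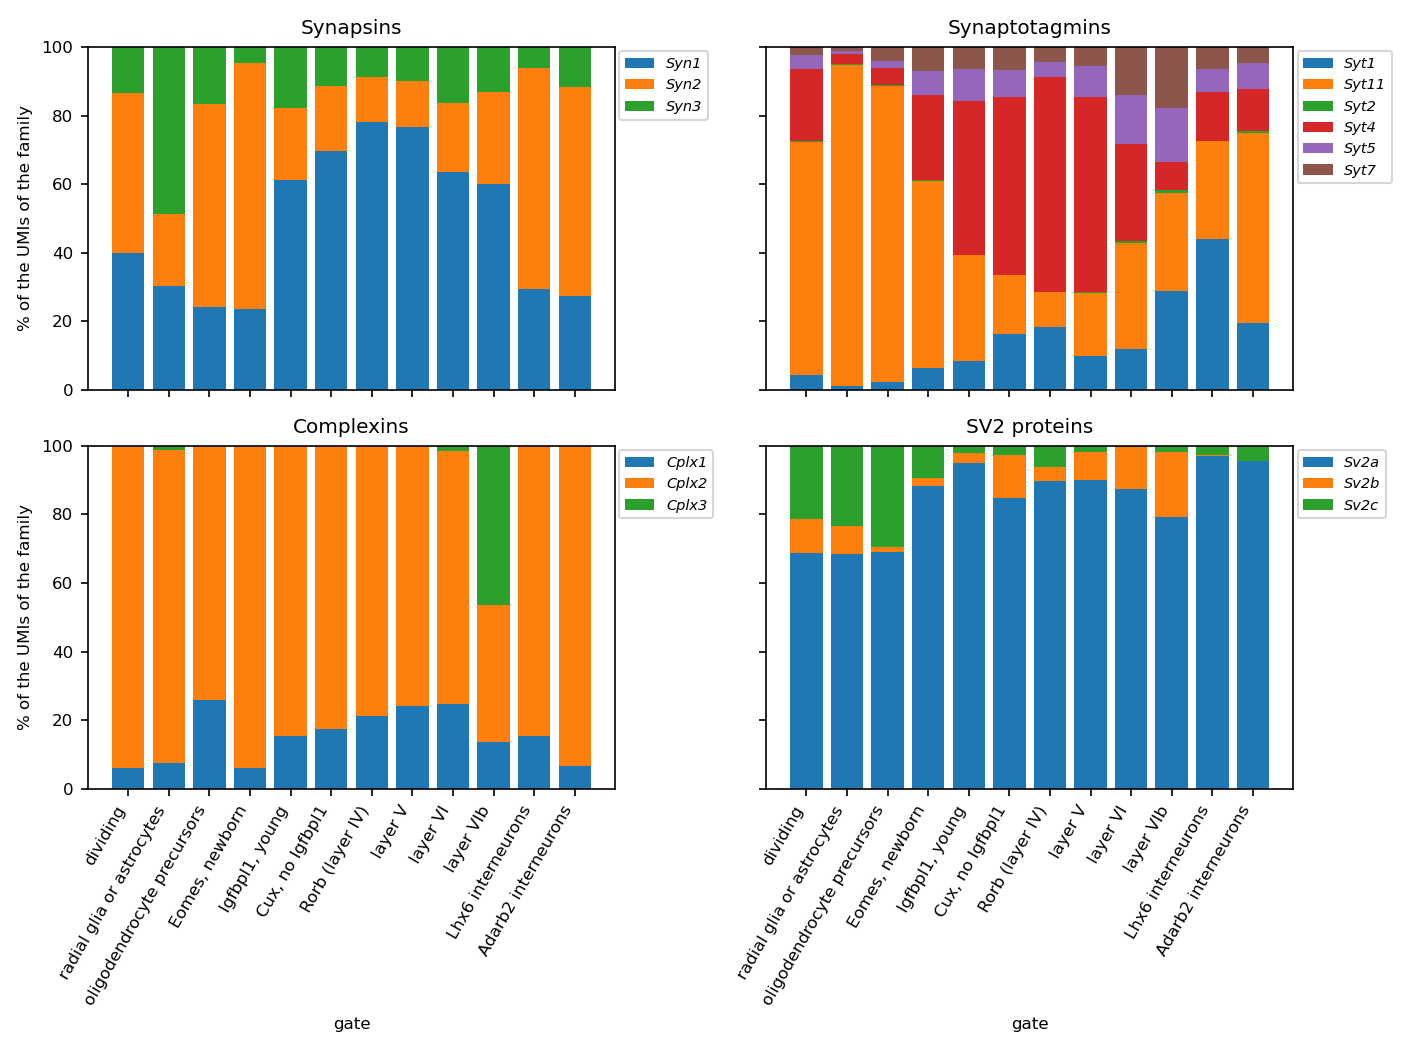
Share of each paralogue in the UMIs of its family (percent, stacked) for synapsins, synaptotagmins, complexins and SV2 glycoproteins in 12 classes, in 1 WT library. Syn2 gives way to Syn1 after the newborn class, Syt11 fills glia-like classes, and Cplx3 appears as 46.5% of complexin UMIs in layer VIb-like neurons.

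Of the other vesicle membrane genes, Syp and Syngr3 were graded and Synpr was selective. Syp, synaptophysin, was 56.4 CPM (46.0 to 68.4) in newborn neurons and 64.9, 73.8, 85.1, 107 and 149 CPM in the layer classes from Cux-gated to layer VIb-like. Syngr3, a synaptogyrin, was 30.1 CPM in newborn and 71.5 CPM in layer neurons. Synpr, synaptoporin, was 65.7 CPM (44.6 to 93.3) in Adarb2 and 22.8 CPM (13.9 to 35.2) in Lhx6 cells, 14.2 CPM (9.30 to 20.9) in newborn and 1.85 CPM (1.37 to 2.46) in layer neurons. Syngr1 was 29.8 CPM in layer neurons, 42.5 CPM in OPC-like and 57.5 CPM in non-neural cells, where 37 of its 40 UMIs lay in 5 cells.

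Sv2a, which held 86.9% (86.0 to 87.8) of SV2 UMIs in layer neurons, was 81.6 CPM (69.0 to 95.8) in newborn, 180 CPM in layer and 357 CPM (317 to 399) in layer VIb-like neurons. Sv2b varied among excitatory neurons, with 23.1 CPM (19.9 to 26.6) in Cux-gated, 6.76 CPM (4.87 to 9.13) in layer IV-like, 30.5 CPM (26.5 to 34.9) in layer VI-like and 84.7 CPM (66.1 to 107) in layer VIb-like neurons, and 1 UMI in all 231 interneurons. In Cux-gated neurons 5 of the 67 Sv2b-positive cells held 22.9% of its UMIs. Sv2c had 262 UMIs over all classes and among the 12 larger classes was highest in OPC-like cells at 19.6 CPM.

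Rab3 GTPases ride on vesicles and bind the Rim proteins. Rab3a was 301 CPM (277 to 327) in newborn neurons and 426 to 615 CPM in layer neurons, and held 70.6% (70.0 to 71.3) of Rab3 UMIs in the latter. Rab3b was 17.5 CPM (12.0 to 24.7) in newborn, 68.2 CPM in layer and 142 CPM (118 to 170) in layer VIb-like neurons. In interneurons Rab3b was 116 CPM (94.9 to 141) in Lhx6 but 17.0 CPM (7.32 to 33.4) in Adarb2 cells. Among the 12 larger classes Rab3c had its highest levels in layer V-like neurons (192 CPM, 178 to 207), young neurons (186 CPM, 180 to 193) and Adarb2 cells (182 CPM, 146 to 225), with overlapping intervals, and in Adarb2 cells it held 38.2% (31.8 to 44.9) of Rab3 UMIs.

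Genes of the active zone, the patch of membrane where vesicles fuse, were graded in part. Bsn (bassoon) was between 32.9 CPM in newborn and 45.3 CPM in layer VIb-like neurons with overlapping intervals, and 61.6 CPM (46.3 to 80.4) in Lhx6 cells. Bsn shares exon bases with Gm47303 on its own strand, so its count is uncertain. Pclo (piccolo) was 48.7 CPM in newborn, 93.8 CPM in Cux-gated, 160 CPM in layer VI-like and 280 CPM (246 to 318) in layer VIb-like neurons, with 0 UMIs in non-neural cells. Rims1, which tethers vesicles to calcium channels, held 42.5% (33.5 to 51.9) of Rims1 and Rims2 UMIs in newborn, 68.3% (66.4 to 70.2) in layer neurons and 51.1% (43.6 to 58.6) in interneurons. Unc13a, the main priming factor, held 73.7% (70.8 to 76.4) of Unc13 UMIs in young and 54.7% (51.0 to 58.5) in layer VI-like neurons, where Unc13b was at its highest with 45.9 CPM (40.9 to 51.2). Unc13b was 21.6 CPM (12.1 to 35.6) in non-neural cells, and only the layer VI-like class had an interval above that of non-neural cells.

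The second comparison asked which members are neuronal and which are shared with glia. In layer neurons 27 of 38 genes were at least 2-fold higher than in radial glia or astrocyte-like cells (21.8% of all genes; the interval of Vamp1 held 1), or 24 without Sv2b, Vamp1 and Cplx3, which reached 100 UMIs only through layer neurons, and 1 was lower (20.3%), with a median ratio of 6.21 against 1.02 over all genes. Syt4 (22.9-fold, 17.7 to 30.3), Syt1 (18.0-fold) and Slc17a7 (17.6-fold) had the largest ratios, and the lower gene was Syt11 (0.236, 0.225 to 0.249). Against OPC-like cells 23 were higher (16.3%), or 22 without Sv2b, and 6 lower (18.5%), the lower ones being Gad1, Gad2, Sv2c, Vamp1, Syt11 and Syn2. Newborn neurons compared with dividing cells had 15 higher (12.4%), 2 with intervals that held 1, led by Slc17a6 (5.86-fold, interval 4 to 8.91), Rab3c (3.87-fold) and Syn2 (3.85-fold), and 1 lower (13.3%), Sv2b, whose interval held 1. Both glia-like classes together had 22 genes higher than non-neural cells (24.1%), 5 of them with intervals that held 1, or 21 without Syt2, which reached 100 UMIs only through them, led by Syt11 at 54.3-fold (31.0 to 105), and 2 lower (12.6%), Stx1a and Syngr1. Layer neurons had 27 higher than non-neural cells (26.7%), 2 with intervals that held 1, or 26 without Sv2b, and 0 lower (20.1%).

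The third comparison was of inhibitory with excitatory neurons. In interneurons 7 genes were at least 2-fold higher than in layer neurons (8.38% of all genes) and 6 lower (9.39%), with a median ratio of 1.03 against 1.04 over all genes. The 7 higher were Gad2 (119-fold, 96.8 to 147), Gad1 (102-fold, 77.0 to 137), Slc32a1 (85.8-fold, 60.8 to 123), Synpr (20.4-fold), Syn2 (7-fold, 5.76 to 8.47), Vamp1 (2.93-fold) and Rims2 (2.24-fold, 1.77 to 2.79). Vamp1 rested on 9 UMIs, 8 of them in Lhx6 cells. OPC-like cells also held 8 Vamp1 UMIs, and non-neural cells were at 4.31 CPM. The 6 lower were Sv2b (0.0336), Syt4 (0.17, 0.146 to 0.197), Slc17a6 (0.206), Slc17a7 (0.227), Syt2 (0.271, an interval that held 1) and Stx1a (0.405). Slc32a1 reached 100 UMIs only through interneurons (91 UMIs elsewhere), and Sv2b and Syt2 only through layer neurons, which leaves 6 higher and 4 lower genes without them. When classes were formed on thinned cells, which left 95 interneurons and 65 layer neurons, 29 of the 38 genes reached 100 UMIs. Of these, 4 were higher (7.4% of all genes), and 3 of the 4 were among the 7. Of the 7, Vamp1 and Rims2 fell short of 2-fold there, and Synpr and Slc32a1 kept the ratio but had too few UMIs to be counted. Of the 6 lower genes 4 kept the ratio, 3 of them with at least 100 UMIs, and Sv2b and Syt2 did not keep it. Layer neurons are a group in both this and the first comparison.

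**Figure D4:**
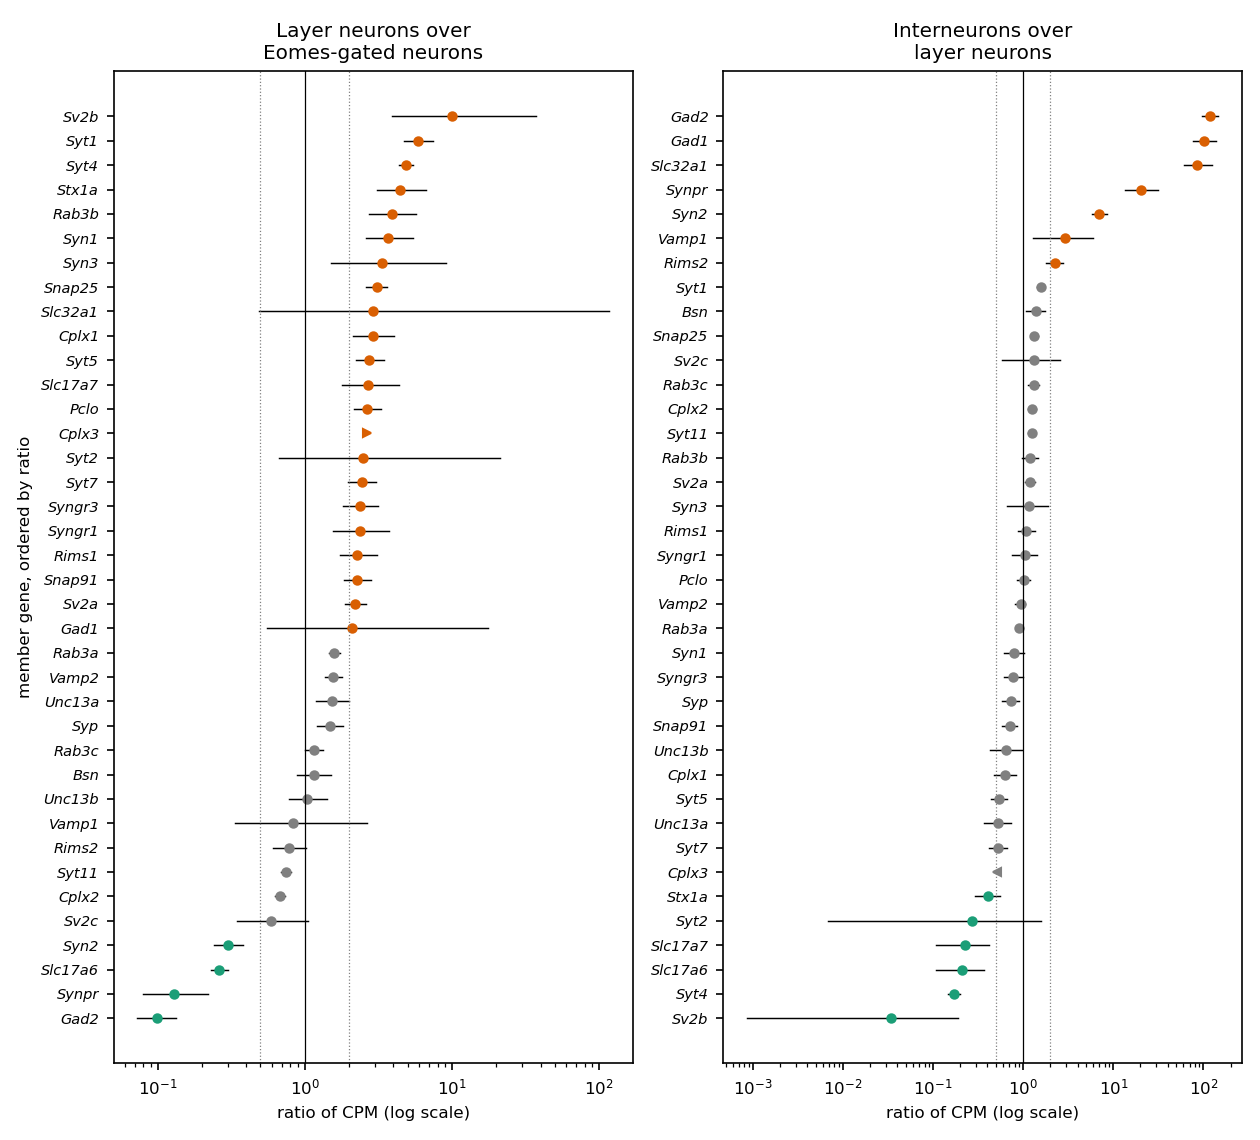
Ratio of CPM for each of the 38 genes (log scale), layer neurons over Eomes-gated newborn neurons and interneurons over layer neurons, with lines for exact 95% counting intervals, triangles for bounds where a group had 0 UMIs and dotted lines at 2-fold. Most genes lie to the right in the first panel (22 higher, 4 lower), and most lie between the dotted lines in the second (7 higher, 6 lower).

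The interneuron classes differed in several genes of fusion and docking. In Lhx6 compared with Adarb2 cells 11 genes were higher (10.9%), of which Vamp1 had an interval that held 1, and 3 lower (8.98%). Rab3b (6.86-fold, 3.35 to 16.3), Syt1 (4.60-fold, 3.46 to 6.21), Snap25 (4.04-fold, 3.05 to 5.46) and Stx1a (3.77-fold, 1.47 to 12.3) had the largest ratios with intervals above 1. Of the 3 lower genes, Synpr (0.347, 0.188 to 0.629) had an interval below 1, and the intervals of Slc17a6 and Slc17a7 held 1. Median depth was 5897 UMIs in Lhx6 and 4326 in Adarb2 cells, and its part in the result was not tested.

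Some genes differed between the layer VIb-like class and the other excitatory layers. Compared with the other layer neurons 9 genes were higher (6.74%), of which Vamp1 had an interval that held 1, and 4 lower (9.09%), with a median ratio of 1.40. Cplx3 was 95.2-fold higher (61.2 to 153), Slc17a7 5.13-fold (4.21 to 6.22), Syt2 4.34-fold (1.90 to 8.78), Sv2b 4.25-fold (3.26 to 5.45) and Syn2 2.47-fold (1.66 to 3.57). Cplx3 and Syt2 reached 100 UMIs only through this class, with 28 and 96 UMIs outside it, and 7 higher genes remain without them. The lower ones were Slc17a6 (at most 0.0803, taking 3 UMIs for the 0 seen), Syt4 (0.105, 0.0822 to 0.132), Cplx2 (0.367) and Cplx1 (0.463). The class had 47 cells, of which 14 were at the gate minimum, at a median of 17627 UMIs.

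The remaining layer comparisons share classes with each other. Syt2 or Cplx3 reached 100 UMIs only through the higher class in 3 of them, and the counts without such genes follow theirs. Layer VI-like compared with layer IV-like neurons had 6 higher (6.98%, 4 without Syt2 and Cplx3) and 6 lower (6.07%, the interval of Synpr holding 1), with Snap25 at 2.53-fold (2.37 to 2.71) and Syt1 at 0.274 (0.253 to 0.297). Layer V-like compared with layer VI-like neurons had 3 higher (3.7%) and 5 lower (8.01%, 4 without Cplx3, the interval of Vamp1 holding 1), and Syt4 was 3.48-fold higher (3.29 to 3.69). Layer V-like compared with Cux-gated neurons had 2 higher (5.68%, 1 without Syt2) and 1 lower (8.21%), Slc17a6 at 0.0550 (0.0313 to 0.0901). Layer IV-like compared with Cux-gated neurons had 2 higher (2.71%), Stx1a and Sv2c, and 3 lower (2.17%), Sv2b, Slc32a1 (an interval that held 1) and Gad2.

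Other genes of vesicle release were counted in the same way. From a list of 64 (alpha-synuclein, liprins, dynamins, further Rims and synaptotagmins), 52 had enough UMIs, and 23 were higher (13.8% of all genes) and 1 lower (12.8%) in layer than in newborn neurons, with a median ratio of 1.84. Rph3a (10.3-fold), Rimbp2 (8.95-fold) and Sncb (7.55-fold) led. In interneurons 6 were higher (8.38%) and 7 lower (9.39%) than in layer neurons, with Rph3a, a Rab3 effector, at 5.88-fold. Widely used counterparts, which serve fusion in most cell types, had 3 of 17 higher and 3 lower in layer than in newborn neurons, beside the 13.8% and 12.8% of all genes, with a median of 0.986. In a reference list of 10 general neuronal genes, 5 were higher and 1 lower in the same comparison, with a median of 1.68. All 10 were higher in layer neurons than in radial glia or astrocyte-like cells (21.8% of all genes), with a median of 8.19. A rise in layer neurons was thus not particular to release genes.

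The Cajal-Retzius-like cells, an early population of the cortical surface, combined high Slc17a6 with high Syn2. With 17 cells, Slc17a6 was 327 CPM (265 to 398) and made up 99.0% (94.5 to 100) of the UMIs of the pair, Syn2 was 323 CPM (262 to 395) and Syp 213 CPM (164 to 273). Of the 98 Slc17a6 UMIs, 49 lay in 5 cells. In the 15 striatal inhibitory-like cells Gad2 was 402 CPM (303 to 524) and Slc32a1 161 CPM (101 to 244).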

How the data were processed

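Sc-RNA Seq counts of 1 WT library were used. The authors deposited raw UMI counts per gene and cell barcode, not normalized, and a table of total counts and detected genes per cell, whose totals equalled the sums of the counts in 11062 of 11062 cells. Per the methods, cortex was digested in papain and captured with the 10x 3′ kit. The submitters' processing notes list mm9, STAR, Cell Ranger and Seurat. Gene models and the cell-calling rule are not given in the sources used here, so coordinates come from GRCm38.p6 (RefSeq) and no position was taken from the table.

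The library held 90346034 UMIs, a median of 7196.5 a cell (500 to 92061), with 3.90% mitochondrial and 0 repeated barcodes. Cells with under 2000 non-mitochondrial UMIs (2615) and cells that met more than 1 gate (142) were left out, and 3565 met none. Gates summed UMIs of marker genes and were checked on further markers. The markers hold no member, and the UMI minimums were set after marker UMIs had been seen. The 38 members, the lists of other release genes and the comparisons were chosen with earlier results of these data known.

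Counts were summed per gate and divided by non-mitochondrial counts. Intervals are exact Poisson (levels), conditional binomial (ratios) and Clopper-Pearson (shares), at 95%, for counting error only, and a count of 0 was replaced by 3 counts for a bound. A gene was compared with at least 100 UMIs over all gated cells (13425 genes). Thinning drew 2000 UMIs a cell (seed 1). Members with at least 500 UMIs over gated cells, or whose highest gate was at least 4 times the level over gated cells, were described by class, and Sv2c and Vamp1 by totals. Other release genes were named from the 5 largest ratios in each direction among those with at least 500 UMIs. 1 of these genes is not reported here. In Scrublet (scanpy 1.11.5) the automatic threshold marked 0 cells, so no doublets were removed. The ratio and interval steps were tested on simulated counts. Python 3.11.15, numpy 2.4.6, scipy 1.17.1, pandas 2.3.3 and matplotlib 3.10.9 were used. Alternatives were other gate minimums, gating on thinned cells, all gated cells without the depth minimum, the mean of per-cell levels, a matched depth of 4000 UMIs, CPM over all UMIs, all genes with a UMI, and, chosen after seeing the data, leaving out the 5% of cells with the highest Scrublet scores, leaving out the Cux gate and weighting layer classes equally.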

Additional observations from a re-analysis of the deposited data

How the results depend on the processing

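With 1 library, no value here has a replicate error. Over all alternatives, the count of genes at least 2-fold higher in layer than in newborn neurons was 15 to 22 (7.56% to 15.3% of all genes). The count higher in layer neurons than in radial glia or astrocyte-like cells was 25 to 28 (11.2% to 23.7%). That of genes lower in interneurons was 5 to 9 (4.92% to 11.2%). All were within 1.5 times the reported counts. The Cplx3 ratio of layer VIb-like neurons was 90.1 to 121, for a gene that reached 100 UMIs only through that class. Forming classes on cells thinned to 2000 UMIs left 641 cells and no layer VIb-like cell, so that Cplx3 had no value. There 29 of the 38 genes reached 100 UMIs. The interneuron-higher count was 4 (7.4% of all genes) in place of 7, and 3 of the 4 were among the 7. Of the 7, 5 kept the ratio, 2 of them under 100 UMIs. Of the genes called between layer and newborn neurons, 15 of the 22 higher and 3 of the 4 lower kept the ratio. At least 100 UMIs were held by 14 and 2 of these, so the 15 genes counted as higher there are not all among the 22. The ratio was lost by Sv2b, Syn3, Syngr1, Syt2, Cplx3, Slc32a1 and Gad1 among the higher and Slc17a6 among the lower. With these classes the Slc17a6 share in layer neurons was 81.0% in place of 56.9%, the Gad2 share in interneurons 63.8% in place of 68.3%, and the Vamp2 share in layer neurons 99.2% in place of 98.9%. By the mean of per-cell levels the Slc17a6 share was 59.3%. It was 39.2% without the Cux-gated neurons and 37.0% with layer classes weighted equally, both below 50%, since the class mix sets this pooled share. The Scrublet alternative planned with called doublets was not run, because 0 cells were called. Leaving out the 545 cells with the highest scores (198 of them in a class) moved no count by over 1.5 times. In layer VIb-like neurons 3 UMIs would be 3.58 CPM. No paired analysis was possible because there is 1 library and no replicate number to pair.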
